A study of Mus musculus with 23 samples.

Results

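The collagen chain genes are all genes of the deposited count table whose symbol is Col, a type number, the letter a and a chain number. There were 44 of them among 21402 genes, and 41 passed a filter on low counts, beside 15638 of all genes. They were sorted into 6 classes: 8 fibrillar, 7 cartilage, 9 basement membrane, 6 FACIT (fibril-associated) and 4 transmembrane chains, and 10 chains of beaded filaments, networks and other types. The 3 that were not tested, Col4a6, Col6a6 and Col26a1, had normalized counts of at most 11.9, 5.39 and 5.69 in any mouse.

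RNA came from bone chips of tibia and femur shafts, which were flushed of marrow and digested to enrich for osteocytes, the cells buried in bone matrix. The mice were C57BL/6, 5 months old, and either wildtype (WT) or knockout (KO) for *Fndc5* in all cells, the gene whose protein is cleaved to the muscle hormone irisin. Females and males of each genotype received a control diet with 0.6% calcium or a low-calcium diet with 0.01% calcium for 2 weeks. This gave 8 groups of 3 mice, except for 2 KO females on the low-calcium diet, and each of the 23 mice gave 1 library.

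Each collagen type is built from 3 alpha chains that wind into a triple helix, either of 1 gene or of several. Type I collagen, with chains from *Col1a1* and *Col1a2*, is the main protein of bone matrix and is made by osteoblasts. Type V collagen is built into type I fibrils and limits their thickness. Types II, IX, X and XI are known from cartilage, and type IV forms the sheets of basement membranes around vessels. FACIT collagens sit on the surface of fibrils.

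Libraries held 7217601 to 33352631 recovered reads (median 20907756). WT females on the low-calcium diet had 11256675, 7217601 and 18606399 reads in mice 16, 17 and 18, and the methods of the study name these 3 libraries for a low share of mapped reads. They raise bacterial reads as a possible source, left unfiltered, which could add counts to some genes. The part of such reads in the collagen values of this group was not tested. Every other library had at least 17942790. Osteocyte markers were present in all libraries, with a summed count of 9949 to 77898 over 12 genes and none at 0 in a whole group. Neutrophil markers of marrow summed to 281719 to 684331 over 10 genes. WT males on the control diet stood apart in hepatocyte markers (20 genes, 5782, 7103 and 36083, against 2276 to 4919 in the other groups) and in skeletal muscle markers (16 genes, 1010 to 1213 against 242 to 489.9). *Fndc5* itself was at 0 to 17.8 counts in WT and 0 to 12.4 in KO mice, and these low counts, which overlap between the genotypes, do not check the labels. In bulk RNA, fewer cells of a type and less RNA per cell cannot be told apart.

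Promoters of the members on which the results turn are shown for some of the chains that moved together and for *Col10a1*, which moved apart. RefSeq windows of 300 bases (GRCm38.p6, 250 before and 50 after the start site) were at hand for 35 members, which did not include *Col1a1*, *Col2a1* or *Col5a2*. Capitals mark the letters CCAAT or TATAAA on either strand, so that ATTGG is CCAAT on the other strand.
Col1a2, chr6:4505368-4505667, plus strand: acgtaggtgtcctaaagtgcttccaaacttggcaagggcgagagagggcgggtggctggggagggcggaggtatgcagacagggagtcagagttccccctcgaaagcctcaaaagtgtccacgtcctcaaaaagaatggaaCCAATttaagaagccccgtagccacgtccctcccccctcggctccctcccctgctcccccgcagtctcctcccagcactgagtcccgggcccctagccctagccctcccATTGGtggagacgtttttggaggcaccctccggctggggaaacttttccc
Col11a1, chr3:114030290-114030589, plus strand: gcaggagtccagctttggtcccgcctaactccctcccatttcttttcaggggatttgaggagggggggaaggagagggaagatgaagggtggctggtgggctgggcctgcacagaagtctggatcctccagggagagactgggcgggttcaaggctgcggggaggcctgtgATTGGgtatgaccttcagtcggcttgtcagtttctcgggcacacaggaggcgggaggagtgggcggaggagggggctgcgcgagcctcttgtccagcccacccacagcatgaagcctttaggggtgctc
Col10a1, chr10:34389731-34390030, plus strand: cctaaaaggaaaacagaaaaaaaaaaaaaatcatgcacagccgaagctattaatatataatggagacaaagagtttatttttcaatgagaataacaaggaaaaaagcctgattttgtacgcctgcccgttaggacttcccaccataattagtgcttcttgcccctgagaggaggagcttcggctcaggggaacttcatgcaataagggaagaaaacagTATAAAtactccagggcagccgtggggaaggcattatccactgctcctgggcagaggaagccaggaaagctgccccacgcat
Col4a1, chr8:11312777-11313076, minus strand: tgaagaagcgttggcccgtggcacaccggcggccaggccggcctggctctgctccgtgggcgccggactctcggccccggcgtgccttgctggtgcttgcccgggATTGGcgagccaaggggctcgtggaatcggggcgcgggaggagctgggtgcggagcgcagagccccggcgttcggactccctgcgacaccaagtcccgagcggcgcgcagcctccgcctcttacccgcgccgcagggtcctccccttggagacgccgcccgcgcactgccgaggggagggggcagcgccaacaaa
Col4a2, chr8:11312555-11312854, plus strand: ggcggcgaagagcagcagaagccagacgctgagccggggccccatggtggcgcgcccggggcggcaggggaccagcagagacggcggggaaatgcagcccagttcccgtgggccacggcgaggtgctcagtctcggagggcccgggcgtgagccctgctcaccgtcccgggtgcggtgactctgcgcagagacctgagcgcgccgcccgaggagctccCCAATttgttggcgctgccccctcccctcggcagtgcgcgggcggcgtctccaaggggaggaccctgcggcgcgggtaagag

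The window of *Col1a2* held CCAAT starting 109 bases before the start site and its complement at base 1. That of *Col11a1* held it 79 bases before. For *Col1a2* these positions refer to the RefSeq start site, and GENCODE M21 begins the gene at 4504814, outside this window. The window of *Col10a1*, the chain of type X collagen of hypertrophic chondrocytes, held no CCAAT and held TATAAA 32 bases before the start. Of 32851 windows of all genes, 37.4% held CCAAT and 13.6% TATAAA, beside 34.2% and 13.2% of 38 member windows. The letters GGGCGG, a GC box, were in 60.5% of member windows and 35.7% of all. *Col4a1* and *Col4a2* lie head to head on chromosome 8. Their genes both cover 22 bases from 11312805 to 11312826, and their windows share 78 bases. Other chains that rose on the low-calcium diet differed in these letters. The windows of *Col5a1*, *Col6a1*, *Col6a2*, *Col6a3*, *Col8a1*, *Col11a2*, *Col13a1* and *Col15a1* held no CCAAT. Those of *Col11a2* and *Col13a1* held TATAAA, 143 and 237 bases before the start. *Col16a1*, *Col25a1* and a window of *Col18a1* held CCAAT. These matches describe letters only.

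*Col1a1* and *Col1a2* gave most of the collagen RNA. Exon length was the union of all annotated exons of a gene, 6563 bases for *Col1a1* and 12426 for *Col1a2*, and the values below depend on it. Per kilobase of exon, the median normalized count over the 23 mice was 35900 for *Col1a1* and 10185 for *Col1a2*. These were 69.2% and 19.6% of the sum of such medians over all members. *Col5a2* followed with 792, *Col11a1* with 629, *Col11a2* with 604, *Col6a1* with 543, *Col5a1* with 451, *Col2a1* with 376 and *Col4a1* with 359. *Col3a1*, a fibrillar chain of soft tissue and vessels, was at 172 per kilobase and ranked 15th. Neighbours in this order from *Col11a1* to *Col4a1* had ranges over the mice that overlapped. Of the tested chains *Col9a2*, *Col6a4*, *Col4a5*, *Col9a1*, *Col4a3*, *Col17a1* and *Col4a4* were at 1.91 or less.

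Collagen reads made up 2.06% ± 0.07 (SD, n = 3) of all counts in WT females and 1.10% ± 0.09 (n = 3) in WT males on the control diet. In KO mice on this diet they were 1.58% ± 0.61 (n = 3) in females and 0.791% ± 0.217 (n = 3) in males. On the low-calcium diet the share was 5.24% ± 1.36 (n = 3) in WT females, 2.44% ± 0.06 (n = 2) in KO females, 2.60% ± 0.68 (n = 3) in WT males and 3.06% ± 0.93 (n = 3) in KO males. It was thus highest in WT females on the low-calcium diet and lowest in KO males on the control diet, and on each diet the ranges of some groups overlapped. Type I chains were 82.6% to 91.7% of collagen reads in any mouse.

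**Figure D1:**
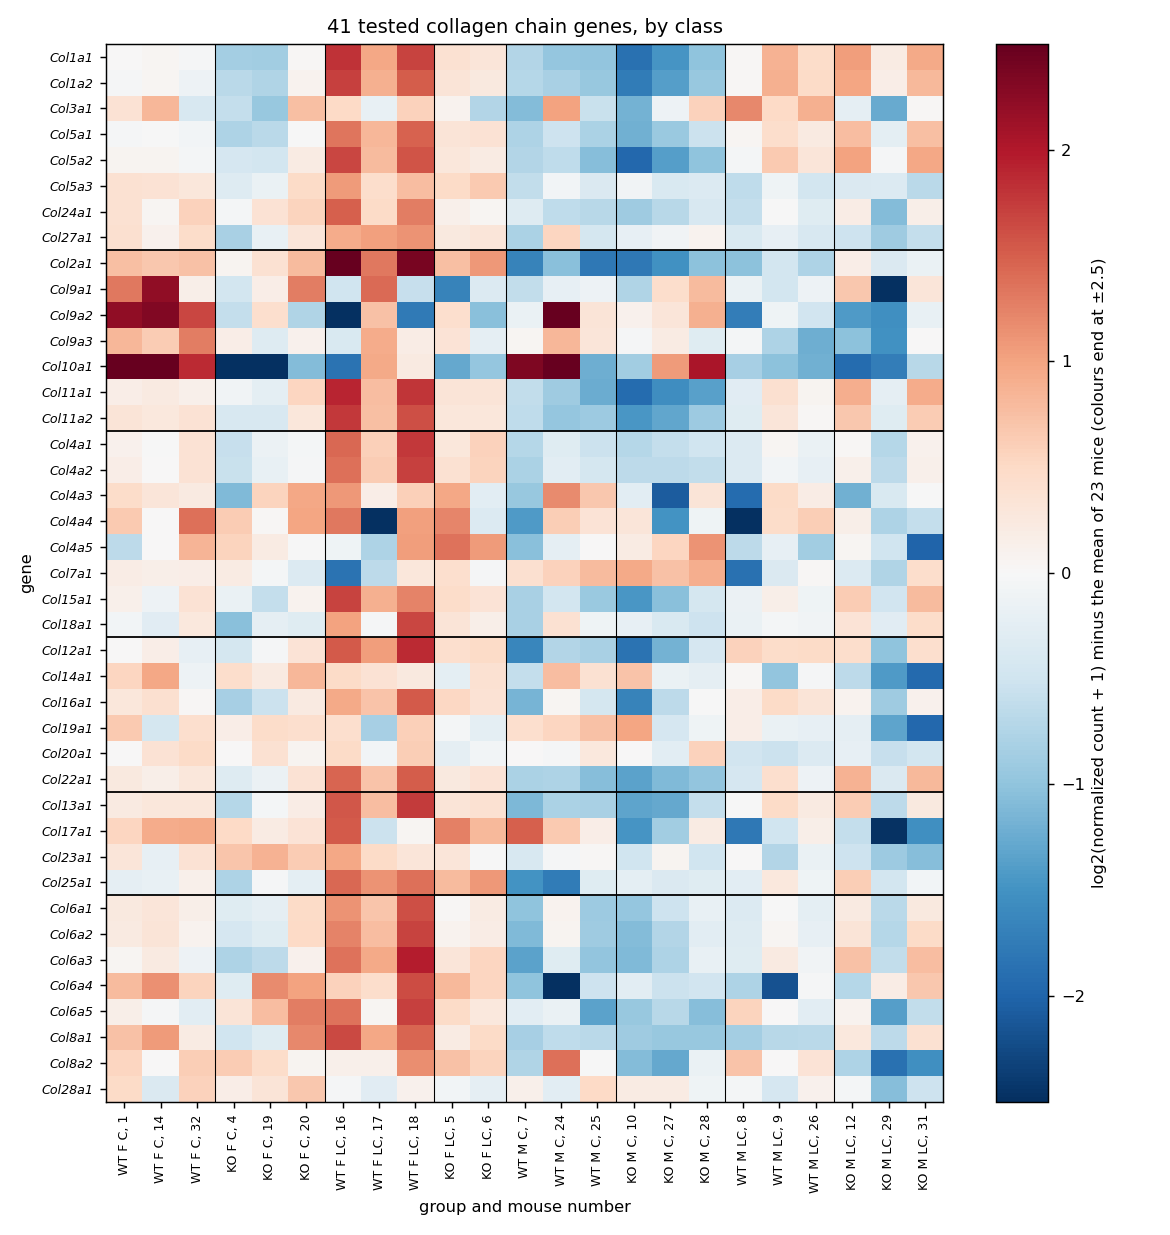
Rows are the 41 tested collagen chain genes by class, columns the 23 mice by group (F, female; M, male; C, control diet; LC, low-calcium diet), and colour is log2(normalized count + 1) minus the mean of the gene over all mice. Most chains of types I, II, V, VI and XI are highest in mouse 16 or 18 of the WT females on the low-calcium diet, while *Col9a2* and *Col10a1* are highest in mouse 24.

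The first comparison was of females with males. Genes were fitted with limma on log2(normalized count + 1) with Benjamini-Hochberg adjustment over all genes, and an adjusted p under 0.05 is called. All log2 differences below are on this scale. In the mean over the 4 strata of genotype and diet, 30 of the 41 collagen chain genes were higher in females and 0 were lower, beside 40.1% of all genes (20.1% higher and 20% lower). The median log2 difference was 0.73 over the members and -0.00066 over all genes tested. Of the 30, 21 were above 0 in all 4 strata. The 30 had been picked by their calls in the mean of these strata, which favours a shared sign. The share of all genes with a shared sign was not counted. Higher levels in females were called for 7 of 8 fibrillar, 4 of 7 cartilage, 3 of 8 basement membrane, 5 of 6 FACIT and 4 of 4 transmembrane chains, and for 7 of 8 others. A mean over the 3 strata without WT females on the low-calcium diet was chosen after seeing the data. In it 22 were called, all higher.

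*Col2a1*, the chain of type II collagen, had the largest difference. Its counts were 5624, 5343 and 5547 in WT females on the control diet, against 1051, 1617 and 961 in WT males. KO females on this diet had 3471, 4345 and 5802, against 961, 1167 and 1633 in KO males. No male of either genotype reached the lowest female. On the low-calcium diet WT females had 18934, 8296 and 17306 against 1645, 2420 and 1961 in WT males, and KO females had 5647 and 7061 against 3722, 2580 and 2964 in KO males. The sexes did not overlap in any stratum. The log2 difference was 1.99 (SE 0.14, adjusted p = 1.1e-08 by limma) in the mean over strata. It was 2.22 (SE 0.27, adjusted p = 9.1e-05) in WT and 1.86 (SE 0.27, adjusted p = 0.00085) in KO mice on the control diet, and 2.81 (SE 0.27, adjusted p = 5.4e-06) in WT mice on the low-calcium diet. In KO mice on that diet it was 1.05 and was not called (adjusted p = 0.059).

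Set against type I collagen, *Col2a1* still stood apart by sex. Females had 1.84 to 3.44 counts of *Col2a1* per 100 counts of *Col1a1* (n = 11, median 2.44), and males 0.580 to 1.54 (n = 12, median 0.809). The 2 ranges did not overlap. This ratio was chosen after the values had been seen and was not tested.

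Among the other chains with a large sex difference were some of network, beaded filament and transmembrane types. *Col8a1*, whose protein forms hexagonal networks as in the Descemet membrane of the eye, was higher in females by 1.22 (SE 0.16, adjusted p = 3.3e-05 by limma). In WT mice its counts were 2933, 3719 and 2048 in females and 994, 1137 and 1115 in males on the control diet, and 5540, 3476 and 4844 against 976, 1090 and 1108 on the low-calcium diet. WT females were above WT males on both diets with no overlap. KO females on the control diet were spread widely, at 1258, 1442 and 4046 against 919 to 954 in KO males. *Col6a4*, *Col17a1* and *Col6a5* were higher by 1.45, 1.18 and 1.05 at low counts, with female means of 22.9, 8.07 and 49.8. Col17a1 is known as an anchor of skin epithelium.

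Chains of bone matrix were higher in females too. *Col1a1* was higher in females by 0.61 (SE 0.15, adjusted p = 0.0027 by limma) in the mean over strata, *Col1a2* by 0.56 and *Col5a1* by 0.49. All 3 calls were lost in the mean over the 3 strata, at 0.47 (adjusted p = 0.055), 0.44 (adjusted p = 0.051) and 0.33 (adjusted p = 0.098). *Col11a1* and *Col11a2*, the type XI chains that are near relatives of type V, were higher by 1.00 and 0.88. *Col12a1*, a FACIT on type I fibrils, and *Col24a1*, a fibrillar chain of bone, were higher by 0.91 and 0.90. *Col4a1* and *Col4a2*, the ubiquitous basement membrane chains, were higher by 0.76 and 0.78. *Col3a1* was at 0.014 (SE 0.27, adjusted p = 0.97), a value that fell below 0 in edgeR and DESeq2. *Col10a1* was at -0.46 (SE 0.64, adjusted p = 0.60), and at 0.017 without mouse 24.

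Markers of several cell types moved with this comparison, beside 20.1% of all genes higher and 20% lower. Of 8 osteoblast markers 7 were higher in females, of 12 endothelial markers 11, of 12 osteocyte markers 8 and of 10 osteoclast markers 9. Of 10 neutrophil markers 9 were lower, and of 5 erythroid markers 3. Of 12 tendon and periosteum markers 4 were higher, and of 15 skeletal muscle markers 1 was higher and 1 lower. Of 20 hepatocyte markers 1 was higher and 8 lower. Of 11 chondrocyte markers 1 was higher, with a median log2 difference of 0.50. By stratum this median was 0.88 in WT and -1.04 in KO mice on the control diet. On the low-calcium diet it was 0.53 in WT and 1.14 in KO mice. On the control diet the osteoblast sum was 28099 to 33028 in WT females and 16392 to 21758 in WT males, and 20608 to 32248 in KO females and 18635 to 29322 in KO males. The endothelial sum was 15908 to 19253 and 13505 to 15232 in WT, and 13410 to 17539 and 13397 to 14156 in KO mice. No marker of either list was at 0 in a whole group. The part of these cells in the collagen differences was not tested.

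**Figure D2:**
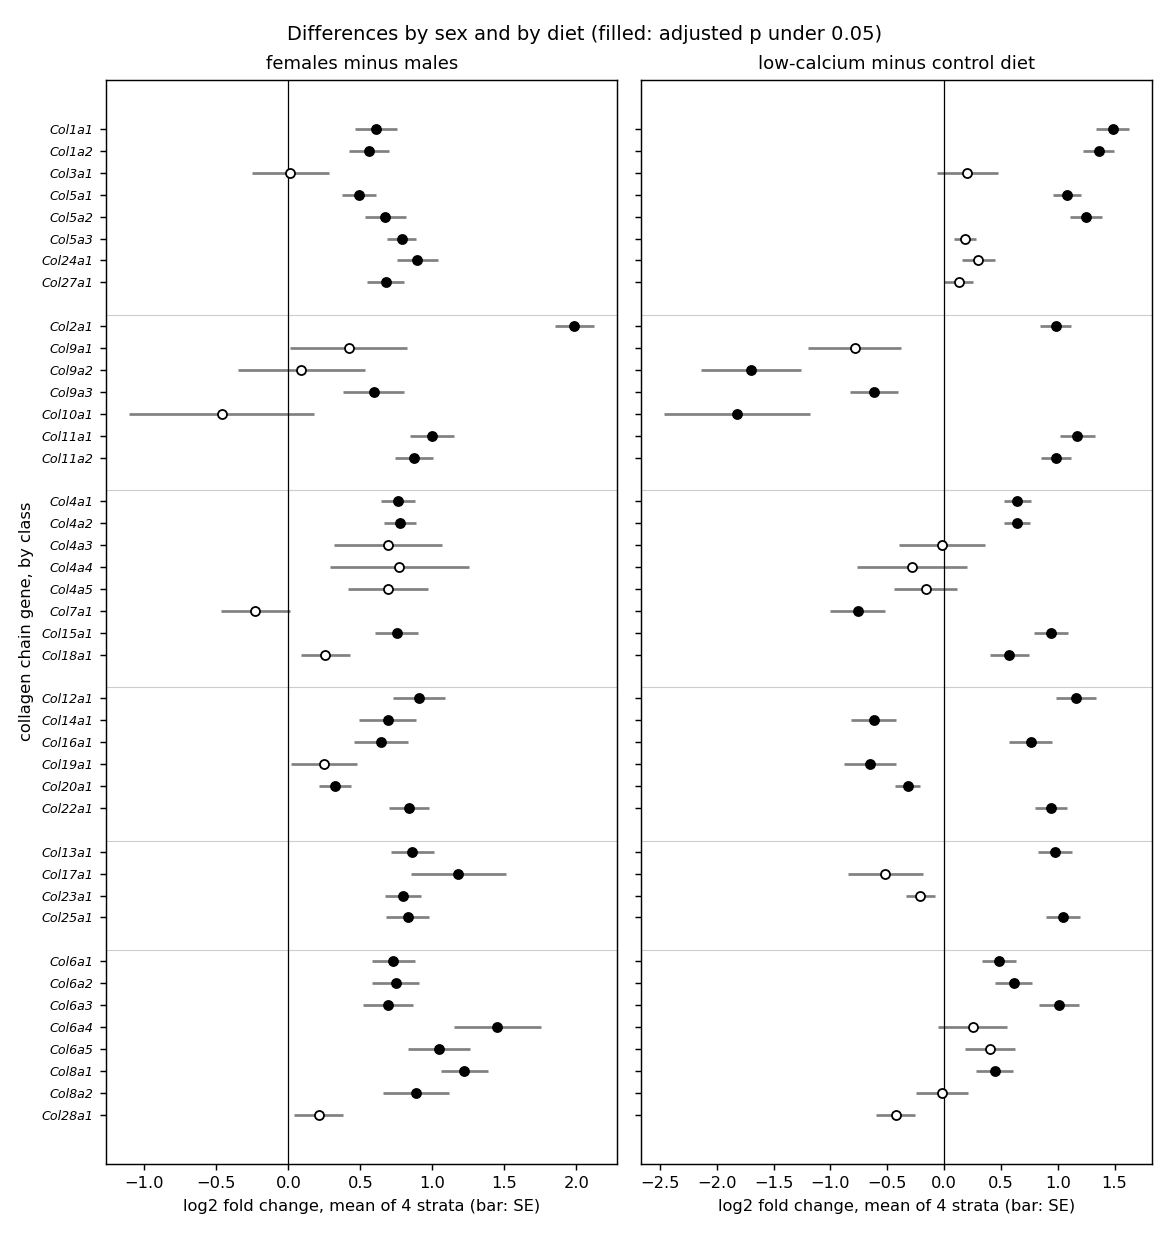
Points are log2 fold changes of the 41 tested genes in the mean over 4 strata, females minus males on the left and low-calcium minus control diet on the right, with bars for the standard error and filled points for an adjusted p under 0.05. For sex all 30 filled points lie above 0, and for diet 20 lie above and 7 below.

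Within single strata the number of calls differed widely. On the control diet 5 of the 41 chains were called in WT mice, all higher in females, beside 1.89% of all genes (1.07% higher and 0.819% lower). These were *Col2a1* (2.22), *Col8a1* (1.38), *Col13a1* (1.17), *Col11a2* (1.15) and *Col22a1* (1.10). The FACIT *Col22a1*, known from tissue junctions such as that of muscle and tendon, had 1427, 1328 and 1470 counts in females and 698, 706 and 575 in males, which did not overlap. The call of *Col2a1* held without any 1 mouse. With hepatocyte and muscle covariates, in which the WT males of this comparison stand apart, 9 were called but *Col8a1* (adjusted p = 0.25), *Col11a2* (adjusted p = 0.14) and *Col13a1* (adjusted p = 0.084) were not. The count fell to 1 without mouse 1 or 14, to 2 without mouse 32 or 7 and to 3 without mouse 24, was 12 in DESeq2 and 17 in a fit of these 2 groups alone. *Col1a1* differed by 0.91 here (adjusted p = 0.10).

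In KO mice on the control diet 7 were higher in females and 0 lower, beside 3.91% of all genes (1.78% higher and 2.14% lower). They were *Col2a1* (1.86), *Col6a5* (1.69), *Col11a1* (1.68), *Col5a2* (1.22), *Col22a1* (1.12), *Col23a1* (1.04) and *Col11a2* (1.04). *Col11a1* had 6852, 6150 and 10511 counts in KO females and 1910, 2476 and 2847 in KO males, with no overlap and an adjusted p of 0.0059 by limma. Mouse 20 was the highest KO female for *Col11a1* and for *Col1a1* (233255 against 126678 and 126428), and without it only *Col2a1* was called. The count fell to 2 without mouse 10 and to 3 without mouse 27, and was 14 in DESeq2, of which 13 were higher. *Col1a1* differed by 0.89 (adjusted p = 0.074).

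On the low-calcium diet 25 were called in WT mice, all higher in females, beside 31.9% of all genes (17.1% higher and 14.8% lower). After *Col2a1* the largest were *Col8a1* (2.10), *Col6a4* (1.87), *Col6a3* (1.48), *Col4a2* (1.45), *Col11a1* (1.43) and *Col4a1* (1.42). *Col6a3*, the long chain of type VI beaded filaments, had 8126, 6131 and 12430 counts in WT females and 2574, 3716 and 2994 in WT males (adjusted p = 0.0031 by limma). *Col1a1* was higher by 1.04 (SE 0.28, adjusted p = 0.0091 by limma), a call lost without mouse 8 (adjusted p = 0.060), and *Col1a2* by 0.91. The groups did not overlap for any of the 25, which had been picked by their calls. The share of all genes without overlap was not counted. The number of calls was 21 to 26 without any 1 mouse. In this stratum all 8 osteoblast markers and 11 of 12 endothelial markers were also higher in females. Endothelial sums were 19006 to 33727 against 16340 to 16848. Higher too were 7 of 12 osteocyte, 4 of 10 osteoclast, 7 of 20 hepatocyte and 1 of 11 chondrocyte markers. Of 12 tendon and periosteum markers 3 were higher and 1 lower, and of 15 skeletal muscle markers 1 and 1. Lower were 9 of 10 neutrophil and 5 of 5 erythroid markers. The part of these cells was not tested.

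In KO mice on the low-calcium diet 2 were higher in females and 0 lower, beside 2.59% of all genes (1.09% higher and 1.5% lower). *Col5a3*, a fibrillar chain of type V, had 601 and 682 counts in KO females and 333, 338 and 270 in KO males. *Col8a2*, the partner of *Col8a1*, had 52.8 and 46.4 against 17.9, 7.89 and 10.2. Both sets did not overlap, with log2 differences of 1.03 (adjusted p = 0.022) and 2.03 (adjusted p = 0.036) by limma. Both calls were lost without either female and with only these 2 groups in the fit, and 8 chains were called without mouse 12, 1 without mouse 29 or 31, and 7 in DESeq2. *Col1a1* was at -0.40 here (adjusted p = 0.49), with 297728 and 283978 counts in KO females between the 264917 and 474334 of KO males.

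The second comparison was of diet. In the mean over the 4 strata of sex and genotype, 20 chains were higher and 7 lower on the low-calcium diet, beside 31.4% of all genes (16% higher and 15.4% lower). The median log2 difference was 0.41 over the members. Of the 20 that rose, 19 were above 0 in all 4 strata, and of the 7 that fell, 3 were below 0 in all 4. These chains had been picked by their calls in the mean of the same strata, which favours a shared sign. The share of all genes with a shared sign was not counted. Among the chains that rose were both of type I, *Col2a1*, *Col4a1* and *Col4a2*, *Col5a1* and *Col5a2*, *Col6a1* to *Col6a3*, both of type XI and *Col12a1*. In the 3 strata without WT females there were 20 calls (16 higher, 4 lower), and with hepatocyte and muscle markers as covariates 19, all higher.

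*Col1a1* had the largest rise. Its counts went from 230541, 236903 and 225912 to 806241, 449795 and 738379 in WT females, and from 126678, 126428 and 233255 to 297728 and 283978 in KO females. In WT males they went from 137653, 117631 and 115200 to 235609, 417191 and 315403, and in KO males from 62586, 82948 and 113548 to 474334, 264917 and 445350. No mouse on the low-calcium diet was as low as any of its sex and genotype on the control diet. The log2 difference was 1.48 (SE 0.15, adjusted p = 1.1e-06 by limma) in the mean over strata. It was 1.48 (adjusted p = 0.0021) in WT females, 1.35 (adjusted p = 0.0089) in WT males and 2.19 (adjusted p = 0.00043) in KO males. In KO females it was 0.91 and was not called (adjusted p = 0.084), and without mouse 20 it was 1.2 (adjusted p = 0.019). Without mouse 9 the call was lost in WT males.

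**Figure D3:**
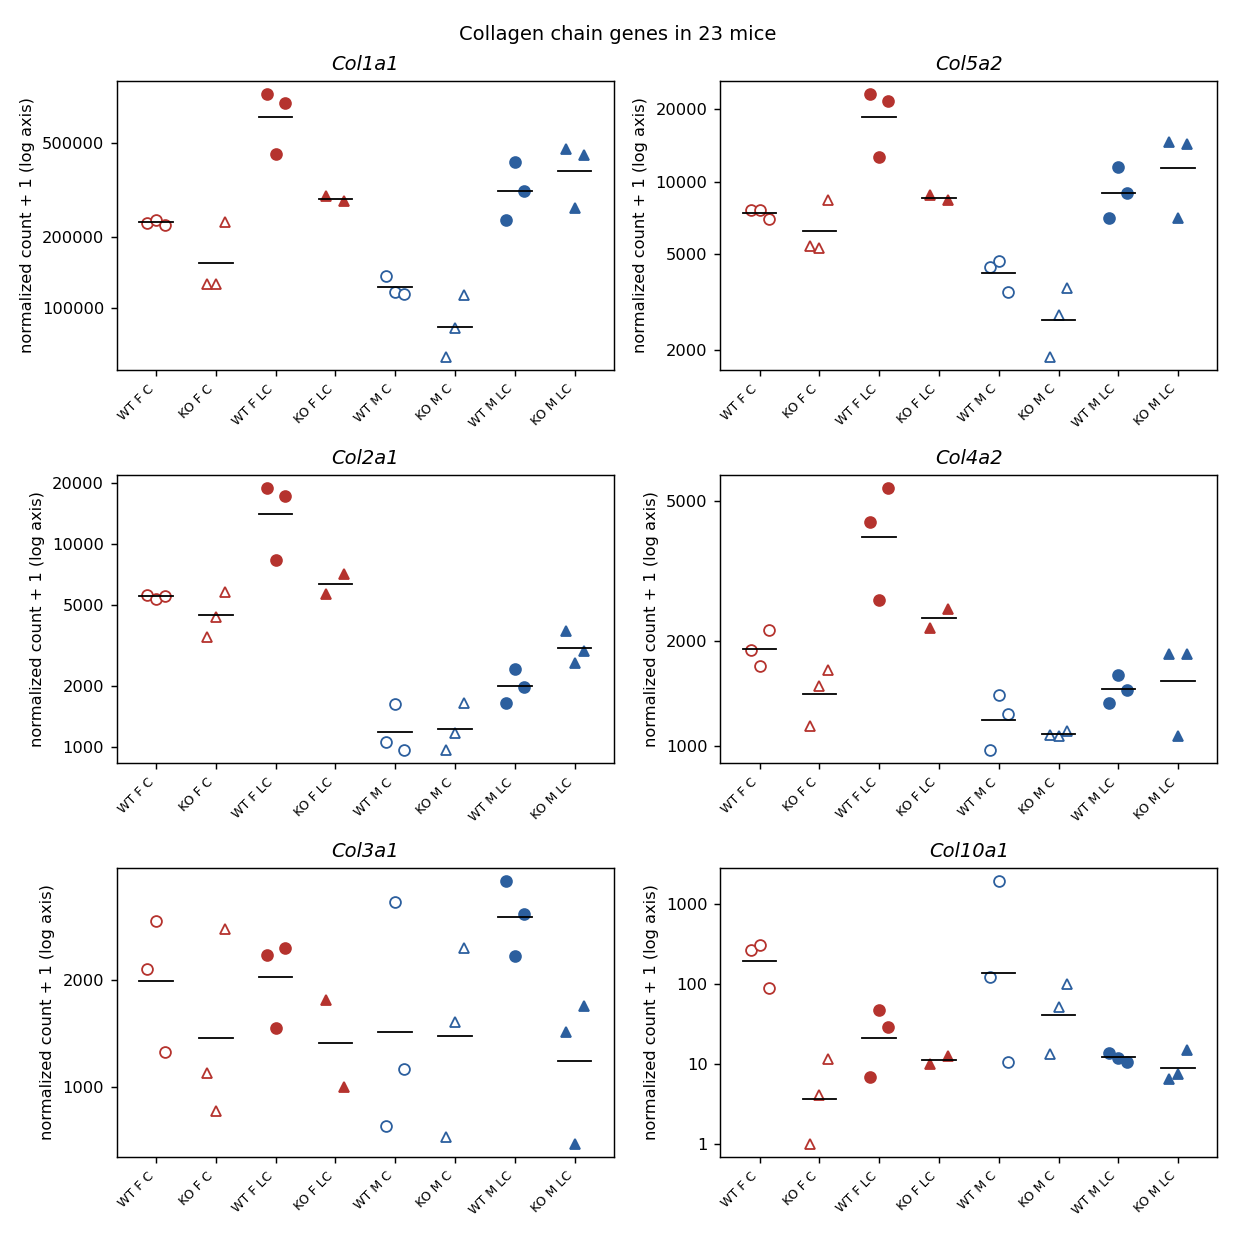
Each point is 1 mouse and each bar the mean of log2(normalized count + 1) of its group, on a log axis, for 6 chains. *Col1a1*, *Col5a2* and *Col2a1* are higher on the low-calcium diet and *Col4a2* and *Col2a1* in females in the means over strata, *Col3a1* overlaps between the sexes in every stratum, and *Col10a1* reaches 1913 in 1 WT male on the control diet (mouse 24).

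The partners of type I collagen rose with it. *Col1a2* rose by 1.36 (SE 0.14, adjusted p = 1.4e-06 by limma), *Col5a2* by 1.25 and *Col5a1* by 1.08 in the mean over strata. *Col5a2* had 7642, 7598 and 7028 counts in control-fed WT females and 23072, 12641 and 21657 on the low-calcium diet, and 1877, 2801 and 3610 against 14539, 7089 and 14323 in KO males. These groups did not overlap. *Col11a1* rose by 1.17, *Col11a2* by 0.98 and *Col2a1* by 0.98. Of the FACIT chains *Col12a1* rose by 1.16, *Col22a1* by 0.94 and *Col16a1* by 0.76. Of the transmembrane chains *Col25a1*, first known from plaques in the brain, rose by 1.04 (a call lost with the covariates, at 0.70 with adjusted p = 0.15), and *Col13a1*, known from the neuromuscular junction, by 0.98. The other fibrillar chains, *Col3a1*, *Col5a3*, *Col24a1* and *Col27a1*, were not called, and *Col3a1* was at 0.21 (SE 0.27, adjusted p = 0.60).

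Chains of basement membranes and beaded filaments rose too, 4 of 8 and 4 of 8 in their classes. *Col4a1* and *Col4a2* both rose by 0.64 (adjusted p = 0.00042 and 0.00025 by limma), *Col15a1* by 0.94 and *Col18a1*, the source of the vessel inhibitor endostatin, by 0.57. *Col4a2* had 1879, 1695 and 2142 counts in control-fed WT females and 4363, 2607 and 5461 on the low-calcium diet, with no overlap. *Col6a3* rose by 1.01, *Col6a2* by 0.61 and *Col6a1* by 0.49. In the mean over the 3 strata without WT females the calls of *Col6a2* (0.47, adjusted p = 0.076), *Col6a1* (0.35, adjusted p = 0.16) and *Col18a1* (0.46, adjusted p = 0.097) were lost. *Col8a1* rose by 0.45, a call that was lost without any 1 of 19 mice, with adjusted p = 0.072 in edgeR and 0.085 in DESeq2.

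The 7 chains that fell were *Col10a1* (-1.82), *Col9a2* (-1.70), *Col7a1* (-0.76), *Col19a1* (-0.65), *Col14a1* (-0.62), *Col9a3* (-0.62) and *Col20a1* (-0.32). Their means on the control diet were 18.7 to 31.7 counts for *Col9a2*, *Col9a3*, *Col19a1* and *Col7a1*, 87.8 for *Col20a1*, 101.3 for *Col14a1* and 239.7 for *Col10a1*. *Col10a1* had 266, 306 and 87.7 counts in WT females on the control diet, against 5.71, 45.6 and 27.3 on the low-calcium diet. In WT males on the control diet it had 120, 1913 and 9.41, and in KO females 0, 3.01 and 10.4. The WT males on this diet thus spread over a wide range, from mouse 25 to mouse 24. Its call (SE 0.64, adjusted p = 0.036 by limma) was lost without any 1 of 13 mice, and with hepatocyte and muscle covariates the value was 1.52 (adjusted p = 0.43). *Col9a2*, a type IX chain on type II fibrils, had 33.7, 36.3 and 22.8 counts in control-fed WT females and 0, 11.4 and 1.19 on the low-calcium diet. It kept its call without any 1 mouse (SE 0.44, adjusted p = 0.0058) but was at 0.46 with the covariates (adjusted p = 0.78) and at -1.14 in the mean over the 3 strata without WT females (adjusted p = 0.11), where *Col10a1* was at -1.35 (adjusted p = 0.20). The calls of *Col19a1*, *Col9a3* and *Col20a1* were each lost without any 1 of 12, 10 and 9 mice, that of *Col14a1* without mouse 5 and that of *Col7a1* without mouse 6.

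The cartilage class was split. *Col2a1*, *Col11a1* and *Col11a2* rose on the low-calcium diet and *Col10a1*, *Col9a2* and *Col9a3* fell. The summed count of 14 chondrocyte markers that are not collagens was 5915 to 6214 in control-fed WT females and 1013 to 2284 on the low-calcium diet. The sum was 725 to 1646 in KO females, 537 to 3347 in KO males and 1060, 2498 and 32852 in WT males, all control-fed, with the highest again in mouse 24. Low-calcium groups had 997 to 1534 in KO females, 1095 to 1373 in WT males and 199 to 391 in KO males. Of 11 such markers tested 5 were lower on the low-calcium diet and 0 higher. In every group on the low-calcium diet, and in KO females on the control diet, at least 1 of the 14 was at 0 in all mice. Mouse 24, with the highest marker sum, had 1617 counts of *Col2a1* and 3931 of *Col11a1*, beside 1051 and 961, and 4735 and 3081, in the other mice of its group. The part of cartilage in these differences was not tested beyond these values.

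**Figure D4:**
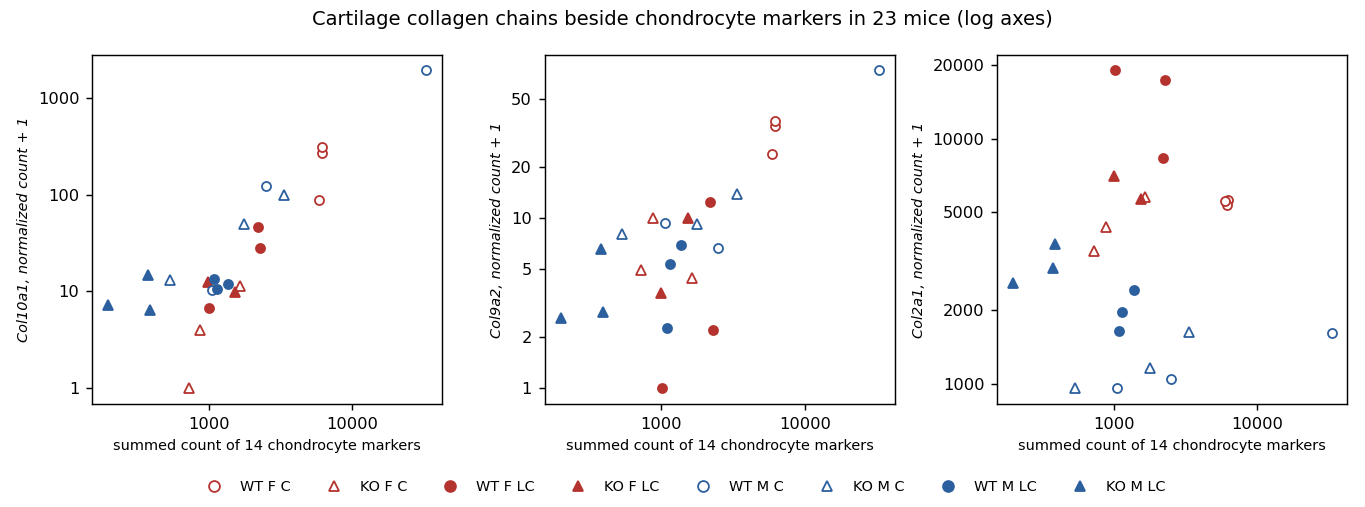
Each point is 1 of 23 mice, with the summed normalized count of 14 chondrocyte markers on the horizontal log axis and the count of *Col10a1*, *Col9a2* or *Col2a1* plus 1 on the vertical log axis. *Col10a1* and *Col9a2* are highest where the marker sum is highest (32852, mouse 24), while *Col2a1* is at 3471 to 18934 in females (red) and 961 to 3722 in males (blue), with 1617 in mouse 24.

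By stratum, 17 chains rose and 1 fell in WT females, beside 16.1% of all genes (9.49% higher and 6.62% lower). The 1 that fell was *Col9a2* (-3.38, adjusted p = 0.011 by limma), a call lost without mouse 16. The 17 were called in the fibrillar (*Col1a1*, *Col1a2*, *Col5a1*, *Col5a2*), cartilage (*Col2a1*, *Col11a1*, *Col11a2*), basement membrane (*Col4a1*, *Col4a2*, *Col15a1*), FACIT (*Col12a1*, *Col22a1*) and transmembrane (*Col13a1*, *Col25a1*) classes, and in type VI (*Col6a1*, *Col6a2*, *Col6a3*). Their log2 differences were 0.90 to 1.49, and mouse 17 was the lowest of its group for all 17. There were 12 to 22 calls without any 1 mouse. *Col10a1* was at -3.23 (adjusted p = 0.083). In KO females only *Col25a1* was called, beside 7.4% of all genes (3.49% higher and 3.91% lower). It had 210, 352 and 304 counts on the control diet and 626 and 771 on the low-calcium diet, a log2 difference of 1.30 (adjusted p = 0.021) that was lost without mouse 4, 5 or 6. Without mouse 20, 5 chains were called.

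In WT males 7 chains rose and 0 fell, beside 4.88% of all genes (2.17% higher and 2.7% lower): *Col12a1* (1.56), *Col1a1* (1.35), *Col1a2* (1.29), *Col25a1* (1.14), *Col13a1* (1.14), *Col5a2* (1.12) and *Col5a1* (0.93). None was called without mouse 9, 2 were without mouse 7 and 3 without mouse 26. With hepatocyte and muscle covariates 0 were called, with values of 1.48 to 3.07 for 6 of the chains and 0.19 for *Col25a1*, and 13 were in a fit of the 2 groups alone. In KO males 10 rose and 1 fell, beside 3.41% of all genes (1.87% higher and 1.53% lower). The largest were *Col1a1* (2.19), *Col11a1* (2.15), *Col5a2* (2.09) and *Col1a2* (2.01), and *Col14a1*, a FACIT of tendon and skin, fell by 1.45. *Col11a1* went from 1910, 2476 and 2847 to 13641, 6214 and 13956 counts, with no overlap. Mouse 29 was the lowest of KO males on the low-calcium diet for each of these 4 chains. The call of *Col14a1* was lost without any 1 of 5 mice, and 7 chains were called without mouse 10.

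Osteoblast markers moved with diet too. All 8 were higher on the low-calcium diet in the mean over strata, and their sum was 75031 to 98819 in WT females, 46402 to 54383 in KO females, 36279 to 42100 in WT males and 30472 to 48220 in KO males on this diet. On the control diet no mouse was above 33028. Of 12 endothelial markers 8 were higher, of 10 osteoclast markers 7 and of 12 tendon and periosteum markers 3. Of 12 osteocyte markers 2 were higher and 1 lower, of 15 skeletal muscle markers 2 were lower, and of 5 erythroid markers 1 was higher. All 20 hepatocyte markers and 6 of 10 neutrophil markers were lower in this mean. By stratum all 20 hepatocyte markers were lower in WT males (median log2 difference -7.12), whose control-fed group stood apart. In KO females and in KO males 1 was lower (medians -1.38 and -1.59), and in WT females 2 were higher and 1 lower (median 0.63). Skeletal muscle markers were lower for 6 of 15 in WT males and for 0 in each other stratum. At least 7 hepatocyte markers were at 0 in all mice of each low-calcium group but WT females, where 1 was. The part of these cells in the rise of the collagen chains was not tested.

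Of a list of 39 genes that make and process collagen 38 were tested, and 26 rose and 1 fell (*Pcolce2*) with diet in the mean over strata, beside the 16% and 15.4% of all genes given above. By stratum 23 rose and 0 fell in WT females, 2 rose and 1 fell in KO females, 4 rose and 1 fell in WT males, and 12 rose and 0 fell in KO males. Of all genes 9.49%, 3.49%, 2.17% and 1.87% rose in these strata, and 6.62%, 3.91%, 2.7% and 1.53% fell. In the mean over strata *Sparc* (1.19), a collagen-binding protein of bone, had the smallest adjusted p of the list. *Creb3l1* (1.2), a transcription factor known to switch on type I collagen genes, came next. *P3h1* (0.87), a prolyl hydroxylase, and *Adamts2* (0.74), which cuts the end of procollagen, followed. By sex 22 were higher in females and 2 lower in the mean over strata, beside 20.1% and 20% of all genes. They were led by *P4ha3* (1.60), a prolyl hydroxylase subunit, and *Plod2* (0.95), a lysyl hydroxylase. Between low-calcium females, 2 were lower in KO than in WT mice, beside 0.812% of all genes. These were *Sec24d* (-0.84), of the coat that carries procollagen out of the endoplasmic reticulum, and *Ppib* (-0.48), a proline isomerase.

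The third comparison was of genotype. In limma 0 of 41 chains were called in any of the 4 strata or in their mean. Of all genes 0% were called in females and 0.46% in males on the control diet, 1.24% in females (0.428% higher and 0.812% lower) and 0.00639% in males on the low-calcium diet, and 0.0576% in the mean (0.0512% lower). In edgeR 0 were called in each as well. At an unadjusted p under 0.05 there were 5 and 5 chains in females and males on the control diet, 19 and 7 on the low-calcium diet, and 15 in the mean over strata, beside 9.66%, 6.76%, 20.9%, 3.52% and 9.04% of all genes.

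In females on the low-calcium diet the median difference, KO minus WT, was -0.75 over the members and -0.024 over all genes, with no chain called. Values below 0 were seen for 35 of 41 chains there, 35 in females and 30 in males on the control diet, 20 in males on the low-calcium diet and 36 in the mean over strata. *Col1a1* had 297728 and 283978 counts in KO females and 806241, 449795 and 738379 in WT females, which did not overlap. Its log2 difference was -1.15 (SE 0.32, adjusted p = 0.074 by limma). The number of calls changed with the model and with mouse 17, the WT library with the fewest reads and the lowest *Col1a1* of its group. Without mouse 17, with mice 16 and 18 left in the WT group, 18 chains were called, all lower in KO. *Col1a1* was then at -1.41 (adjusted p = 0.011 by limma). Without mice 16 and 17 mouse 18 alone was left in the WT group, and *Col1a1* was at -1.34. Chains called were 13 in DESeq2 on the full set and 18 with hepatocyte and muscle covariates, all lower. A fit of the 2 groups alone gave 0. The share of all genes called in each of these other settings was not counted.

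On the control diet *Col1a1* was at -0.57 in females (adjusted p = 0.53) and -0.55 in males (adjusted p = 0.80), and in males on the low-calcium diet at 0.28 (adjusted p = 1.00). In the mean over strata it was at -0.50 (SE 0.15, adjusted p = 0.30). *Col10a1* had the lowest value, at -2.20 in the mean (SE 0.64, adjusted p = 0.30) and -5.76 in females on the control diet (adjusted p = 0.27), where 0, 3.01 and 10.4 counts in KO mice lay below 266, 306 and 87.7 in WT mice. In DESeq2 both were called (-2.75 with adjusted p = 0.0098, and -5.62 with adjusted p = 0.014). With hepatocyte and muscle covariates the mean turned to 0.61 (adjusted p = 0.99), and the value in control-diet females was -6.13 (adjusted p = 0.010). Chondrocyte marker sums in these females were 725 to 1646 in KO and 5915 to 6214 in WT mice.

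Whether the diet difference depended on sex or genotype was tested directly, and 0 of 41 chains were called in any of the 4 such tests by limma or edgeR. Of all genes 0.173% were called for sex in WT (0.166% higher), 0% for sex in KO, 0.0128% for genotype in females and 0% for genotype in males. At an unadjusted p under 0.05 there were 3, 10, 7 and 4 chains, and DESeq2 called 2 for sex in KO and 0 elsewhere. For *Col1a1* the diet difference in females minus that in males was 0.13 in WT (SE 0.40, adjusted p = 0.91) and -1.28 in KO mice (SE 0.43, adjusted p = 0.22). The difference in KO minus that in WT was -0.57 in females (adjusted p = 0.51) and 0.84 in males (adjusted p = 0.93). Without mouse 17 there were 2 calls for sex in WT and 4 for genotype in females, and without mouse 29 there were 3 for sex in KO.

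The pairs *Col1a1* and *Col1a2*, *Col4a1* and *Col4a2*, and *Col6a1* and *Col6a2* kept close proportions from mouse to mouse. The log2 ratio of *Col1a1* to *Col1a2* had a standard deviation within groups of 0.050, while the chains alone had 0.38 and 0.36. Over all 23 mice *Col1a1* spanned 3.69 and *Col1a2* 3.46 on the log2 scale, and their ratio 0.36. The log2 count ratio was 0.72 to 1.08. Per kilobase of exon there were 3.12 to 3.999 of *Col1a1* for 1 of *Col1a2* in every mouse. This value depends on the lengths used, the union of all annotated exons (6563 bases for *Col1a1* and 12426 for *Col1a2*), and is not a measured ratio of chains. The ratio of the neighbours *Col4a1* and *Col4a2*, whose windows are shown above, had a standard deviation of 0.061, beside 0.33 and 0.30 for the chains. That of *Col6a1* to *Col6a2* had 0.068. Reads were counted by strand, which separates *Col4a1* from *Col4a2* in the 22 bases that both cover.

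Other pairs were looser. *Col11a1* to *Col11a2* had a standard deviation of 0.12, and *Col6a3* to *Col6a1* of 0.14 with a span of 0.99 over the mice. *Col5a1* to *Col5a2* had 0.13 and spanned 1.09. The type V ratio was highest in KO males on the control diet (-0.16, -0.46 and -0.43 in mice 10, 27 and 28), the group with the least type I collagen. *Col8a1* and *Col8a2* had 0.75, *Col9a3* and *Col9a2* 1.00 and *Col9a1* and *Col9a2* 1.26, all with at least 1 chain under 100 counts in every mouse. These ratios are descriptions, and the mice share each library's scale in both chains.

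**Figure D5:**
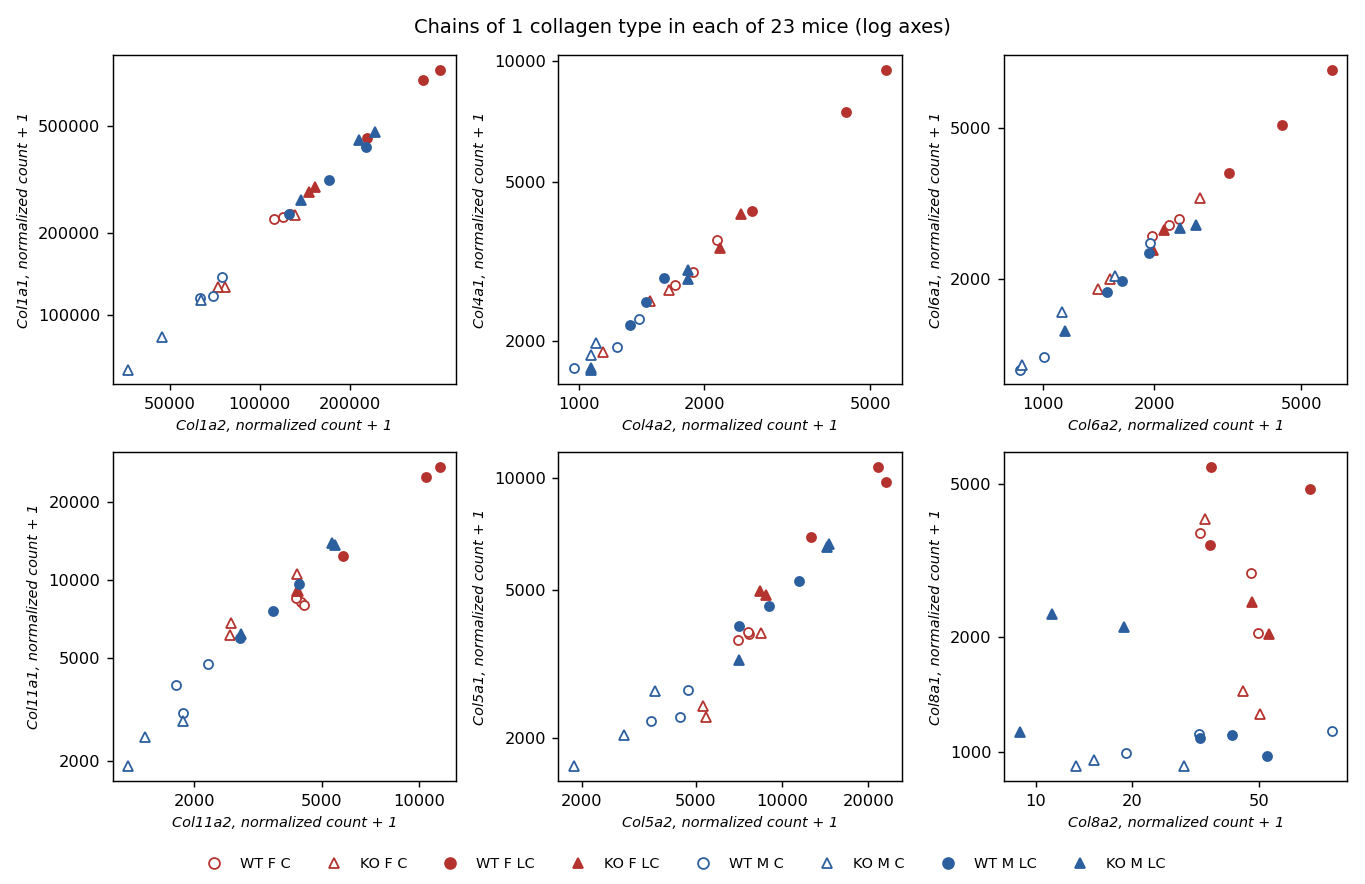
Each point is 1 of 23 mice, with the normalized counts plus 1 of 2 chains of a collagen type on log axes; red is female, blue male, circles WT, triangles KO, filled points the low-calcium diet. Points of types I, IV, VI and XI lie along narrow lines over all groups, type V less so, and *Col8a1* and *Col8a2* show no common line.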

How the data were processed

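Total RNA of osteocyte-enriched bone chips was sequenced from 23 mice in 8 groups, 1 library a mouse. The deposited signal values are normalized counts, 1 for each gene and library. The authors checked reads with FastQC 0.11.5, aligned them to mm10 with STAR 2.7.10a, counted unique reads by gene and strand with featureCounts and divided by size factors of DESeq2. Every value was a whole number of reads times 1 factor of its library (100% within 0.01 reads), and recovered reads per library were 7217601 to 33352631. No source used here names the gene annotation behind the counts, so exon lengths and positions came from GENCODE M21 (GRCm38) by symbol. The length of a gene was the union of all its annotated exons.

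A gene was tested where 2 or more libraries had a normalized count of 10 or higher. Log2(normalized count + 1) was fitted with limma 3.58.1 (lmFit, eBayes with trend) in R 4.3.3, every one of the 8 groups having its own mean. There were 12 comparisons of 2 groups, 3 means over 4 strata and 4 tests of a difference between comparisons. P-values are two-sided, adjusted across the 15638 tested genes (Benjamini-Hochberg), and measure the spread between single mice. Other settings tried were no filter, a pseudocount of 5, edgeR 4.0.16 and DESeq2 1.42.0 on recovered reads, DESeq2 at the study's own limits (p under 0.01 with no adjustment and a log2 difference past 1), marker covariates, 2 groups alone, and leaving out mice. A mean over 3 strata and the ratio of Col2a1 to Col1a1 were added after the data had been seen.

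The members and lists were chosen with earlier results of these data known. Members named are those called in a comparison and 10 fixed chains (those of bone and cartilage and those the study names), and of the processing list at most 4 called genes a comparison. Not all of these are printed in every comparison. In simulated data with 3 mice a group, limma found 80 of 100 genes changed 2-fold and 99 of 100 changed 4-fold, and called 11 of 15185 unchanged genes. With 2 mice against 3 it found 72 and 100 and called 5 of 15215. The changed genes were drawn only from those above a floor of mean reads, so these rates do not cover chains at the lowest counts. Figures were drawn with matplotlib 3.10.9 under Python 3.11.15.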

Additional observations from a re-analysis of the deposited data

How the results depend on the processing

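Of 340 counts of called chains over the 19 comparisons and their settings, 19 are those reported, 256 stayed within 1.5 times and 65 did not. Called chains by DESeq2 were 12 for females against males in WT on the control diet, 14 in KO on the control diet and 7 in KO on the low-calcium diet, 3 for diet in KO females and 12 in WT males, 1 and 13 for genotype in females on the control and low-calcium diet, 1 for genotype in the mean and 2 for sex and diet in KO. At the thresholds of the study there were 8 and 6 for sex in WT on the control and KO on the low-calcium diet, 2, 11, 2 and 2 for genotype (females then males, control then low-calcium diet), 5, 11 and 1 for the means by sex, diet and genotype, and 8, 2 and 1 for the tests of sex and diet in KO and of genotype and diet in females and males. With hepatocyte and muscle covariates there were 9 and 0 for sex in WT on the control and KO on the low-calcium diet, 0 for diet in WT males, 1 and 18 for genotype in females, and 3 and 4 for sex and diet in KO and genotype and diet in females. In fits of 2 groups alone there were 17, 4 and 0 for sex (WT control, KO control, KO low-calcium), and 0, 13 and 6 for diet in KO females, WT males and KO males. Without the filter 1 was called for sex in KO on the low-calcium diet. Leaving out mice 16 and 17 left mouse 18 alone in WT females on the low-calcium diet, so its counts of calls are not given. The share of all genes called was not counted for these settings or for leaving out 1 mouse at a time.

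Leaving out 1 mouse at a time, the counts were 1 to 5, 1 to 9, 21 to 26 and 0 to 8 for sex (WT and KO on the control diet, then WT and KO on the low-calcium diet), and 12 to 22, 0 to 5, 0 to 7 and 7 to 15 for diet (WT females, KO females, WT males, KO males). For genotype they were 0 to 0 and 0 to 18 in females and 0 to 1 and 0 to 0 in males (control, then low-calcium diet). The means by sex, diet and genotype had 28 to 32, 22 to 27 and 0 to 1, and the 4 tests of differences in diet effect 0 to 2, 0 to 3, 0 to 4 and 0 to 0. Of single chains, 20 of 3163 values under other settings changed sign, 324 lost a call and 19 gained one. *Col3a1* by sex was -0.031 in edgeR and -0.038 in DESeq2, and -0.11 to 0.17 without 1 mouse. *Col10a1* by sex was 1.00 with covariates and -0.92 to 0.017 without 1 mouse. With covariates *Col10a1* was 1.52 and *Col9a2* 0.46 by diet, and *Col10a1* 0.61 by genotype. *Col1a1* for sex and diet in WT was -0.079 to 0.39 without 1 mouse. The cause of these changes was not tested. No paired analysis was possible because every mouse has its own number and the groups share none. The low depth of mice 16 and 17 limits chains at few counts, such as *Col9a2*.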
